A study of Mus musculus with 6 samples.

Results

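The genes described here encode proteins that hold cells together: cadherins, claudins, nectins, desmosomal cadherins, junctional adhesion molecules and the plaque and scaffold proteins beneath them. They were chosen by gene symbol alone, as the probe sets named for a single numbered cadherin (Cdh5 left out), claudin, nectin, Tjp, desmoglein or desmocollin gene, or for Ocln, Jup, Dsp, Ctnna1, Ctnnd1, F11r, Jam2 or Jam3. Where a gene had several probe sets, the one with the highest mean signal stood for it. This gave 60 genes, measured by 118 probe sets, of 18193 genes named on the array. The 6 arrays carried RNA of 3 granulosa cell tumors from Smad1/5/8 mutant mice and of 3 wild-type granulosa cell samples. The tumors had no treatment and the design text calls them independent. Their strain, age and sex, how the genes were mutated and in which cells are not given in the sources used. The wild-type cells came from C57BL/6J;129S5/SvEvBrd females aged 21 days that had received PMSG, a gonadotropin preparation that drives follicle growth, 44 to 46 hours before, and 2 to 3 females were pooled for each sample. Smad1, Smad5 and Smad8 (now Smad9) are the transcription factors that carry signals of bone morphogenetic protein receptors.

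In an epithelium or a follicle wall, cells adhere through several kinds of junction. At adherens junctions, cadherins and nectins bind the neighbouring cell, and catenins link the cadherins to actin. Desmosomes use desmogleins and desmocollins, which plakoglobin and desmoplakin tie to intermediate filaments, while claudins, occludin and junctional adhesion molecules form tight junctions over the scaffold of Tjp proteins. Granulosa cells form an avascular epithelium-like layer around the oocyte in which N-cadherin, the product of Cdh2, is a well-known adhesion molecule.

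In tumors, the desmosome linker gene Dsp and the N-cadherin gene Cdh2 had lower signals, by 4.75-fold and 3.64-fold, and the mesenchymal cadherin gene Cdh11, the claudin gene Cldn1 and the desmoglein gene Dsg2 had higher ones, by 3.20-fold, at least 2.63-fold and 3.38-fold (limma SE 0.20 to 0.37 on the log2 scale over these genes, n = 3 per group). Of the 60 genes, 28 reached a signal of 100 on 3 or more of the 6 arrays, passed this filter and were tested. Of these, 5 rose, 6 fell and 17 did not pass at an adjusted p under 0.05 (limma on log2(signal + 32), Benjamini-Hochberg over all 11613 genes tested). Over all genes, the same test called 27.2%, with 14.5% higher and 12.6% lower, against 39.3% of the tested junction genes. Their median log2 fold change was 0.04, and that of all tested genes -0.01. The genes that rose were Cdh11, Cldn1, Dsg2, Jup and Ctnnd1, and those that fell were Dsp, Cdh2, Dsc2, Cdh10, Jam3 and Nectin3. Cldn1 passed the filter through the tumors alone and Cdh10 through the wild-type samples alone, which ties their testing to that group's level. Fold changes refer to log2(signal + 32), a scale that understates changes of dim genes. Signals of different probe sets cannot be ranked against each other.

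Arrays have no read depth. The deposited signals carried equal trimmed means on all arrays, and 22599 to 25057 probe sets reached a signal of 100. Smad1 and Smad5 had higher signals in the tumors (log2 fold changes of 1.44 and 1.19), and since the sources used do not give the mutated parts, these probe sets do not check the labels. Of 9 granulosa markers on the array, 5 fell and 1 rose. Foxl2, a granulosa transcription factor, had mean signals of 10676 in wild-type samples and 7546 in tumors, and its difference missed the threshold (limma adjusted p = 0.0584). Tumor pieces and isolated primed cells differ in tissue makeup, hormone treatment, storage and processing software as well as in genotype, and these cannot be told apart. In such bulk samples fewer cells of a type and less RNA per cell cannot be told apart either. Nothing in the labels says how the cell pools relate to each other, so the p-values measure the spread between these samples. Scaling to the bacterial hybridisation controls instead, an alternative known from an earlier look at these data, moved the median of all genes to -0.98. Under it, of the junction genes, 1 was called higher (Cldn1) and 15 lower. The share of all genes called under it is not given here, so these counts do not set the junction genes apart. Directions below are relative to the common level that equal trimmed means set.

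**Figure D1:**
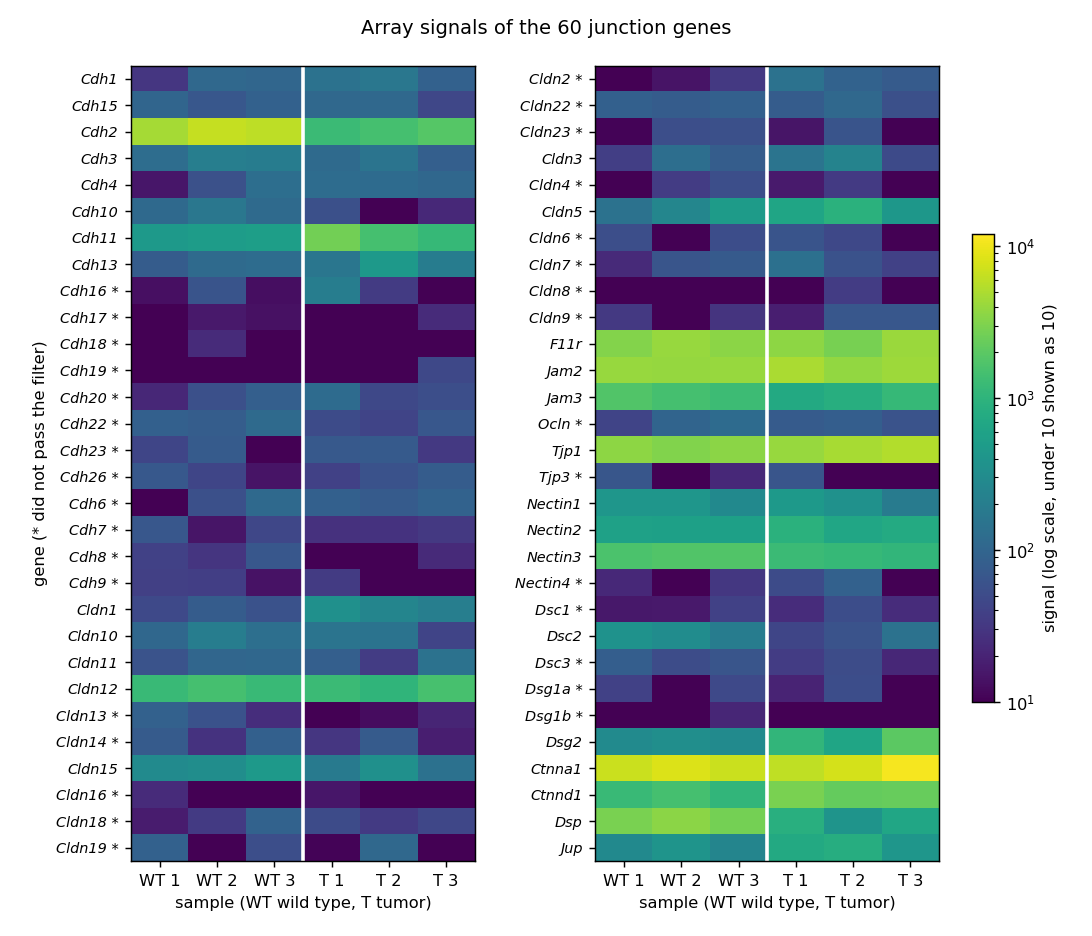
Array signals of all 60 junction genes (rows, grouped by family) in the 3 wild-type samples and the 3 tumors (columns), on a logarithmic colour scale with values under 10 shown as 10. The 32 genes with an asterisk did not pass the filter, and no signal among them exceeded 200.2.

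The promoter letters of the called genes are shown because these genes moved in opposite directions in the same tumors. RefSeq promoter sequences (GRCm38.p6) were matched by symbol for 37 of the 60 genes, among them 6 of the 11 called ones: Dsp, Cldn1, Jup, Ctnnd1, Nectin3 and Cdh10. The 250 bases before each start were searched on both strands for CAGGTG, the E-box bound by Snail and Zeb factors, GGCGCC, a motif bound by the mutated Smads, GGGCGG, the GC box, and AAGGTCA, a site of nuclear receptors such as Nr5a1. GGGCGG can share bases with GGCGCC. The GC box stood before 4 of the 6 called genes (Cldn1, Dsp, Jup and Nectin3), in 48% of the 50 member promoters and in 32.7% of all 32851 promoters of that length. GGCGCC and AAGGTCA each stood before 1 of the 6 (Ctnnd1 both times, before different starts), against 9.59% and 4.08% of all promoters. CAGGTG was in none of the 6, in 22% of the member promoters and in 17.2% of all. The counts are per gene, over any of its promoters, and the percentages per promoter, so they are not directly comparable. Each sequence below reads 5′ to 3′ on the gene's strand, with the motif in capitals, or its reverse complement where the match is on the other strand. Dsp, Cldn1 and Jup each hold more than 1 GC box in the window, and the one farthest from the start is shown; of the GGCGCC matches of Ctnnd1, it is the nearest. The stretches shown, each with its motif inside, span chr13:38151130-38151189 (plus strand) for Dsp, chr16:26371849-26371908 (minus) for Cldn1, chr11:100397870-100397929 (minus) for Jup and chr2:84658978-84659019 (minus) for Ctnnd1. A stretch with the E-box of F11r, whose signal did not pass the test, spans chr1:171437412-171437471 (plus). The F11r promoter also holds a GC box and GGCGCC, 50 and 54 bases before the start, as promoters of called genes do.
Dsp: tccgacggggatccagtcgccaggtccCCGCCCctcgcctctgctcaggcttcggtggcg
Cldn1: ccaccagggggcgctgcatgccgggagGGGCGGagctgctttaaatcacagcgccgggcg
Jup: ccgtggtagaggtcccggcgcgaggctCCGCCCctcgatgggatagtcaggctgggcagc
Ctnnd1: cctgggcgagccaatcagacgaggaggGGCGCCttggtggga
F11r: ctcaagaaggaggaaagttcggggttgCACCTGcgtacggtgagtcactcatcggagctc
A match is a description of these letters and shows no binding.

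Among the 5 type I cadherins, the classical adherens junction cadherins, Cdh2 fell and the other 4 did not pass. Cdh2 read 4660, 6348 and 5841 in wild-type samples 1, 2 and 3 and 1241, 1473 and 1867 in tumors 1, 2 and 3. Every tumor lay well below every wild-type sample. The difference on the log2 scale was -1.87 (SE 0.20, adjusted p = 0.00148 by limma). The other Cdh2 probe set gave -2.37 (SE 0.27, adjusted p = 0.00181 by limma over all probe sets). Most granulosa markers moved the same way as Cdh2 (5 of 9 lower and 1 higher, summed signal 150792 to 176165 in wild-type samples and 60594 to 75620 in tumors, none at 0), and their part in this result was not tested.

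The epithelial cadherin gene Cdh1 was dim in both groups. Its signals were 30.8, 110.7 and 102.6 in wild-type samples and 145.8, 165.6 and 89.7 in tumors. The groups overlapped, with a log2 fold change of 0.61 (95% interval -0.21 to 1.43, limma adjusted p = 0.235). Cdh3, which encodes P-cadherin, read 125.8 to 206.2 in wild-type samples and 85.9 to 153.0 in tumors, a log2 fold change of -0.47 (95% interval -1.03 to 0.08). Cdh4 (R-cadherin) and Cdh15 (M-cadherin) stayed at or below 131.2 on every array, with intervals of -0.22 to 1.70 and -0.66 to 0.59. The intervals of Cdh1, Cdh3 and Cdh4 include changes of 2-fold in one direction, so these values do not show that the groups were alike.

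Of the other 15 cadherin genes, 3 were tested: Cdh11 rose, Cdh10 fell and Cdh13 did not pass. Cdh11 encodes a type II cadherin of mesenchymal cells such as fibroblasts and osteoblasts. Its signals were 456.1, 498.5 and 526.1 in wild-type samples and 2664, 1464 and 1141 in tumors. The groups did not overlap and tumor 1 was the highest, and the log2 fold change came to 1.68 (SE 0.30, adjusted p = 0.00793 by limma). A dimmer Cdh11 probe set also rose, by 1.03 (SE 0.30, adjusted p = 0.0454 by limma over all probe sets).

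Fibroblast markers rose beside Cdh11, 8 of 8, with summed signals of 16931 to 19686 in wild-type samples and 49660 to 74296 in tumors and none at 0. Pdgfra, a receptor gene of fibroblasts, read 4918, 2505 and 1653 in tumors 1, 2 and 3, the same order as Cdh11, while Postn, a matrix gene, was highest in tumor 3 at 3385. Their part in the Cdh11 result was not tested.

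Cdh10, a type II cadherin gene known from the nervous system, read 112.8, 168.0 and 115.2 in wild-type samples and 56.8, 6.71 and 22.6 in tumors. All tumor signals lay under 100, so the fall on this probe set is at least 1.30-fold (limma adjusted p = 0.0135). Of the 4 Cdh10 probe sets, no other passed the filter or was tested, and in each of the others the groups overlapped. A dimmer probe set leaned the same way, at 61.3 to 122 in wild-type samples and 27.8 to 64.7 in tumors. Another leaned the opposite way, at 32.8 to 64.8 in wild-type samples and 48.7 to 81.2 in tumors. The dimmest stayed at or below 7.74 on every array. Cdh10 and Cldn1 were the 2 genes that passed the filter through a single group, which ties their testing to that group's level. Cdh13 encodes T-cadherin, which is anchored to the membrane by a lipid and is found on vascular cells. It read 79.6, 115.9 and 124.3 in wild-type samples and 160.1, 466.6 and 197.0 in tumors. The groups did not overlap and tumor 2 stood highest, but the difference missed the threshold (log2 fold change 1.03, limma adjusted p = 0.0721), and its other passing probe set gave -0.05. The remaining 12 genes, Cdh6, Cdh7, Cdh8, Cdh9, Cdh16, Cdh17, Cdh18, Cdh19, Cdh20, Cdh22, Cdh23 and Cdh26, read from 1.27 to 200.2 and were not tested. The highest of these signals was that of Cdh16 in tumor 1, alone above 100 among its 6 arrays.

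**Figure D2:**
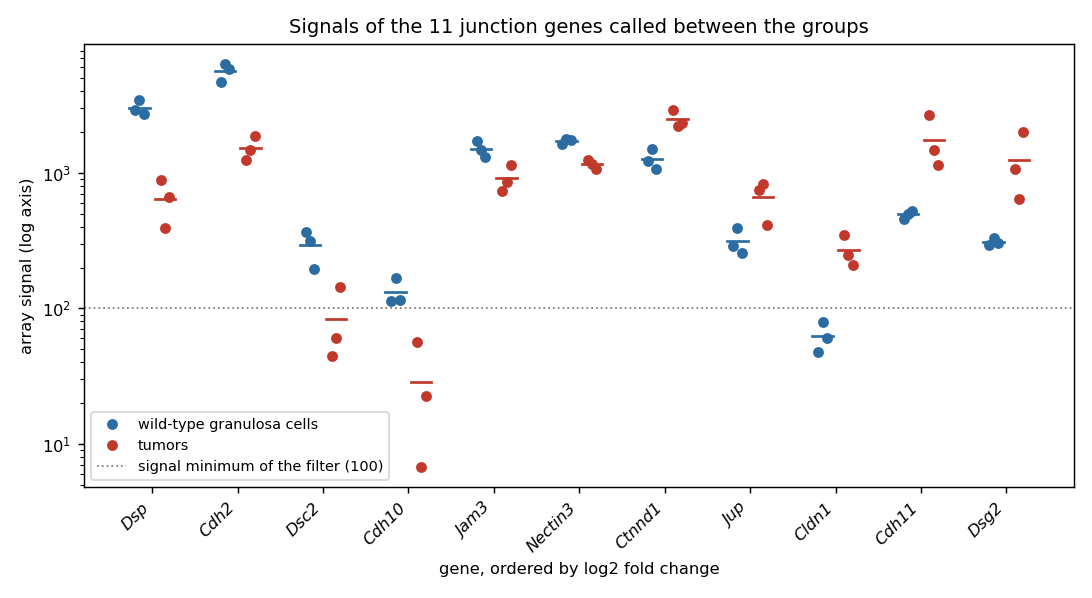
Signals of the 11 junction genes called between the groups, on a logarithmic axis: points are the arrays (3 wild-type samples in blue, 3 tumors in red), horizontal bars are group means and the dotted line is the filter's signal minimum of 100. In each of the 11 genes the ranges of the 3 tumors and of the 3 wild-type samples are apart. Scaled to the hybridisation controls, Ctnnd1 has a log2 fold change of -0.068 (SE 0.36) and Jup of 0.011, and neither is called.

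Of the 2 catenin genes among the 60, Ctnnd1 rose and Ctnna1 did not pass, and the difference between them was not tested. Ctnnd1 encodes p120-catenin, which binds cadherin tails and keeps cadherins at the surface. It read 1221, 1500 and 1062 in wild-type samples and 2897, 2222 and 2316 in tumors. All tumors were higher, by 0.96 on the log2 scale (SE 0.19, adjusted p = 0.0108 by limma), a difference that became -0.068 when scaled to the hybridisation controls. A second probe set rose by 0.91 (SE 0.16), and a dim one did not pass, at 0.23 (SE 0.23).

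Ctnna1, the gene of alpha-catenin, which links the cadherin complex to actin, did not pass. It read 6885, 8167 and 6741 in wild-type samples and 6042, 7646 and 10841 in tumors. Tumors 1 and 2 lay within or below the wild-type range and tumor 3 above it (log2 fold change 0.13, 95% interval -0.41 to 0.68, and -0.91 when scaled to the hybridisation controls). Its probe sets disagreed: a second gave -0.21, and a dim one, at 203.0 to 286.0 in tumors and 354.6 to 496.5 in wild-type samples, fell by 0.75 on the log2 scale (limma adjusted p = 0.0294 over all probe sets).

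Desmosomal genes moved in both directions. Dsp encodes desmoplakin, the plaque protein that anchors intermediate filaments. Its signals were 2908, 3474 and 2710 in wild-type samples and 878.4, 388.6 and 658.7 in tumors. No tumor reached the wild-type range, and tumor 2 was the lowest, and the log2 fold change came to -2.25 (SE 0.28, adjusted p = 0.0025 by limma). Both other Dsp probe sets fell as well, with log2 fold changes of -2.01 (SE 0.17) and -2.58 (SE 0.31).

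Dsg2 and Dsc2 encode the desmoglein and desmocollin that are widespread outside stratified epithelium. Dsg2 read 295.2, 327.8 and 301.3 in wild-type samples and 1065, 646.7 and 2000 in tumors. The wild-type samples lay close together, whereas the tumors spread over 3.09-fold with tumor 3 highest. Its log2 fold change was 1.76 (SE 0.37, adjusted p = 0.0139 by limma), and the call was lost without wild-type replicate 1 (adjusted p = 0.0526). Scaled to the hybridisation controls, Dsg2 was at 0.77 and was not called (limma adjusted p = 0.0544). Of its 3 other passing probe sets, 2 rose, by 1.70 and 1.52, and 1 did not pass (0.33, SE 0.32).

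Dsc2 went the other way. It read 368.3, 314.4 and 193.7 in wild-type samples and 44.6, 60.8 and 143.3 in tumors. The groups did not overlap, 2 of the 3 tumors were under 100, and tumor 3 came close to wild-type sample 3 (log2 fold change -1.55, SE 0.35, limma adjusted p = 0.0183). The call was lost without wild-type replicate 1 (adjusted p = 0.0702), wild-type replicate 2 (0.0586) or tumor replicate 2 (0.0522). The other Dsc2 probe set separated the groups more widely, at 248.7 to 267.0 in wild-type samples and 27.7 to 56.6 in tumors (log2 fold change -2.0, SE 0.18, limma adjusted p = 0.000945 over all probe sets).

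Jup encodes plakoglobin, which binds both desmosomal and classical cadherins. It read 289.1, 392.9 and 254.6 in wild-type samples and 751.3, 823.2 and 415.1 in tumors. Tumor 3 was only slightly above wild-type sample 2, and the log2 fold change was 0.98 (SE 0.28, adjusted p = 0.0407 by limma). Without 1 sample at a time this call held in 1 of 6 fits, that without tumor replicate 3 (adjusted p = 0.00862), and was lost in the other 5, with adjusted p up to 0.122. Scaled to the hybridisation controls, the log2 fold change of Jup was 0.011 (limma adjusted p = 0.98). Dsc1, Dsc3, Dsg1a and Dsg1b, the desmosomal cadherins of stratified epithelium, read from 0.5 to 82.3 and were not tested. Keratins 8 and 18, filament genes of simple epithelium, did not pass either (log2 fold changes -0.44 and 0.60, limma adjusted p = 0.0863 and 0.112).

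Nectins are immunoglobulin-like adhesion proteins of adherens junctions, and of 4 genes 1 fell, 2 did not pass and Nectin4 stayed at or below 91.2. Nectin3 read 1630, 1765 and 1756 in wild-type samples and 1242, 1156 and 1068 in tumors. The spread within each group was small and the groups were apart, at a log2 fold change of -0.56 (SE 0.14, adjusted p = 0.0231 by limma). The result depended on the probe set. Of 6 passing Nectin3 probe sets, the brightest pair fell (-0.56 and -0.54), 1 gave -0.03, and the 3 dimmest gave 0.28 to 0.66 and did not pass, so that their mean was 0.062 (limma adjusted p = 0.8). Without 1 sample at a time the call held in 2 of 6 fits, those without tumor replicates 1 and 3, and adjusted p reached 0.0787. With the replicate numbers as a block it was 0.061.

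Nectin2 read 576.7, 562.1 and 562.8 in wild-type samples and 934.1, 658.4 and 755.8 in tumors. All tumors were higher, yet the difference missed the threshold (log2 fold change 0.43, 95% interval 0.04 to 0.82, limma adjusted p = 0.0938). The other passing Nectin2 probe set overlapped between the groups and gave 0.09 (SE 0.17). Nectin1 read 290.4 to 417.0 in wild-type samples and 191.0 to 466.1 in tumors, with an interval of -0.91 to 0.55.

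**Figure D3:**
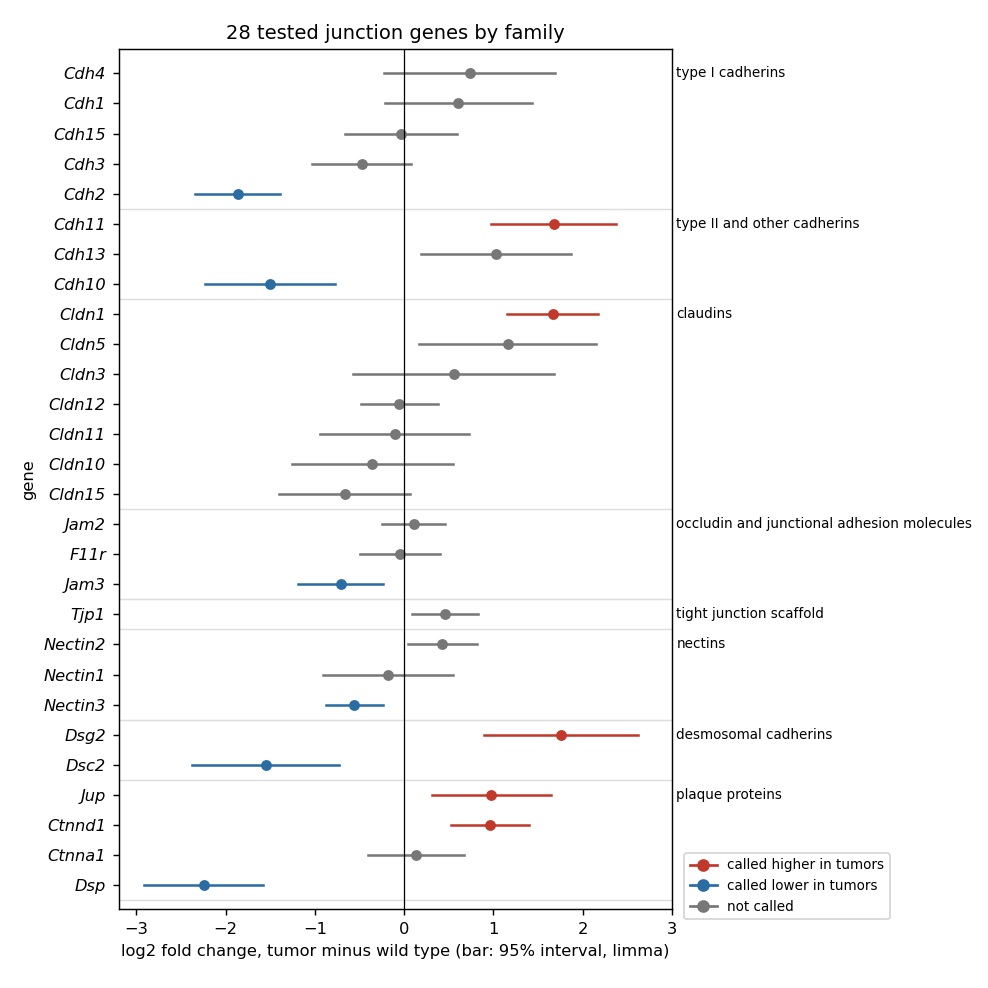
Log2 fold change (tumor minus wild type, on the log2(signal + 32) scale) of the 28 tested junction genes by family, with limma's 95% interval as bars. The 5 red genes were called higher and the 6 blue genes lower; Ctnnd1, at 0.96 here, is at -0.068 when scaled to the hybridisation controls.

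Of 20 claudin genes, 7 were tested, Cldn1 rose and the other 6 did not pass. Cldn1 encodes a barrier-forming claudin of many epithelia. It was under 100 in all wild-type samples (47.6, 78.8 and 60.1) and read 346.9, 249.6 and 210.4 in tumors, a rise of at least 2.63-fold (limma adjusted p = 0.00264). Each tumor lay well above the wild-type range. Cldn1 passed the filter through the tumors alone, which ties its testing to their level. A second Cldn1 probe set, dimmer in the tumors, gave 0.72 (SE 0.49) and did not pass. Surface epithelium and keratin markers did not shift together: of 9 tested, 1 rose and 1 fell, and the summed signal was 4445 to 6415 in wild-type samples and 5317 to 7338 in tumors, with none at 0. Their part in the Cldn1 result was not tested.

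Cldn5, the claudin of endothelial tight junctions, read 145.4, 262.4 and 484.9 in wild-type samples and 639.7, 933.5 and 431.1 in tumors. Wild-type sample 3 exceeded tumor 3, so the groups overlapped (log2 fold change 1.16, SE 0.42, limma adjusted p = 0.0829), and the test passed without wild-type replicate 3 (adjusted p = 0.0394). Endothelial markers moved beside it, 7 of 12 higher and none lower, with summed signals of 3658 to 4553 in wild-type samples and 7629 to 16182 in tumors and none at 0. The endothelial cadherin gene Cdh5, which is no member here, read 800.0, 1717 and 295.7 in tumors 1, 2 and 3, the same order as Cldn5 (limma adjusted p = 0.0504). The part of these markers in the Cldn5 values was not tested.

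Cldn12, a claudin without the usual scaffold-binding end, did not pass. It read 1222, 1486 and 1214 in wild-type samples and 1254, 1042 and 1507 in tumors. The groups overlapped, and the 95% interval of its log2 fold change was -0.48 to 0.38, which leaves out a 2-fold change on this scaling. Scaled to the hybridisation controls it was -1.07 (limma adjusted p = 0.00729), where all genes had a median of -0.98. Cldn15, a pore-forming claudin, read 301.0 to 450.7 in wild-type samples and 139.6 to 349.4 in tumors (log2 fold change -0.67, limma adjusted p = 0.155).

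Cldn11, the claudin of Sertoli cells, the testicular counterpart of granulosa cells, read 61.0, 102.7 and 106.0 in wild-type samples and 85.3, 35 and 144.1 in tumors. Its interval ran from -0.94 to 0.73. Cldn3 and Cldn10 also overlapped between the groups, with signals from 37.7 to 235.2 and from 43.1 to 202.3. The 13 other claudins, Cldn2, Cldn4, Cldn6, Cldn7, Cldn8, Cldn9, Cldn13, Cldn14, Cldn16, Cldn18, Cldn19, Cldn22 and Cldn23, were not tested, with signals from 2.5 to 144.8. Among them Cldn2, a cation pore claudin, read 7.7 to 32.3 in wild-type samples and 144.8, 93 and 77.6 in tumors, a pattern picked out after its values were seen. The other Cldn2 probe set, not tested either, did not show it: it read 11.3 to 109.8 in wild-type samples and 3.70 to 56.3 in tumors.

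Of the other tight junction genes tested, Jam3 fell and F11r, Jam2 and Tjp1 did not pass. F11r, which encodes junctional adhesion molecule A, read 3199, 4073 and 3488 in wild-type samples and 3617, 2770 and 4115 in tumors. Jam2, of the same family, read 3999, 3904 and 4050 in wild-type samples and 4940, 3819 and 4210 in tumors. Both overlapped, with 95% intervals of -0.50 to 0.41 and -0.24 to 0.46 that leave out a 2-fold change on this scaling. For Jam2 this holds for the brightest of 5 passing probe sets. The others ran from -0.58 (SE 0.30) to 0.55 (SE 0.22) and did not pass. Scaled to the hybridisation controls, the log2 fold changes of F11r and Jam2 were -1.09 and -0.93, close to the -0.98 of all genes.

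Jam3 fell, from 1727, 1481 and 1304 in wild-type samples to 736.6, 859.7 and 1147 in tumors. Tumor 3 lay closest to the wild-type samples, and the log2 fold change was -0.71 (SE 0.20, adjusted p = 0.0394 by limma). This call held in 1 of 6 fits without 1 sample, that without tumor replicate 3 (adjusted p = 0.0172), and adjusted p reached 0.139. With the replicate numbers as a block it was 0.0866. Tjp1, the gene of the scaffold protein ZO-1, read 3605, 3111 and 3492 in wild-type samples and 4074, 4774 and 5262 in tumors. All tumors were higher, but the difference missed the threshold (log2 fold change 0.46, 95% interval 0.09 to 0.83, limma adjusted p = 0.0681). Ocln, the gene of occludin, read 42.6 to 119.9 and Tjp3 8.9 to 67.4, and neither was tested.

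Of the 28 tested genes, the groups did not overlap in 14, 8 with all tumors above and 6 with all tumors below. Over all tested genes the groups did not overlap in 46.3%. The 3 without overlap that were not called are Cdh13, Nectin2 and Tjp1.

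**Figure D4:**
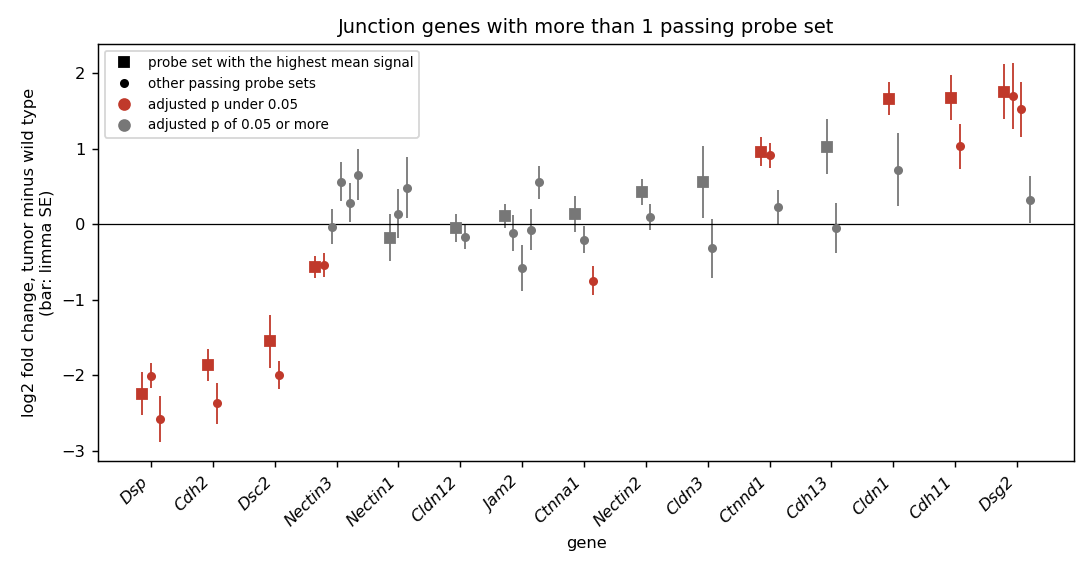
Log2 fold change (tumor minus wild type, bars are limma's SE) of every passing probe set of the 15 junction genes with more than 1; squares are the brightest probe sets, and red marks an adjusted p under 0.05 over all probe sets. The probe sets of Dsp, Cdh2, Dsc2 and Cdh11 were all called in 1 direction, while those of Nectin3 lie from -0.56 to 0.66; scaled to the hybridisation controls, the brightest probe sets of Cldn1 and Cdh11 are at 0.86 and 0.67 and that of Ctnnd1 is at -0.068.

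Probe sets of a gene can detect different ends or transcript forms, and they measured the same RNA. Of the 11 called genes, 8 had several passing probe sets, and in 4 of these (Dsp, Cdh2, Dsc2 and Cdh11) each passing probe set was called in the same direction. Passing probe sets differed in sign in 6 of the 15 genes with more than 1: Cdh13, Cldn3, Ctnna1, Jam2, Nectin1 and Nectin3. Jup was measured by a single probe set, and Jam3 and Cdh10 by a single passing one.

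**Figure D5:**
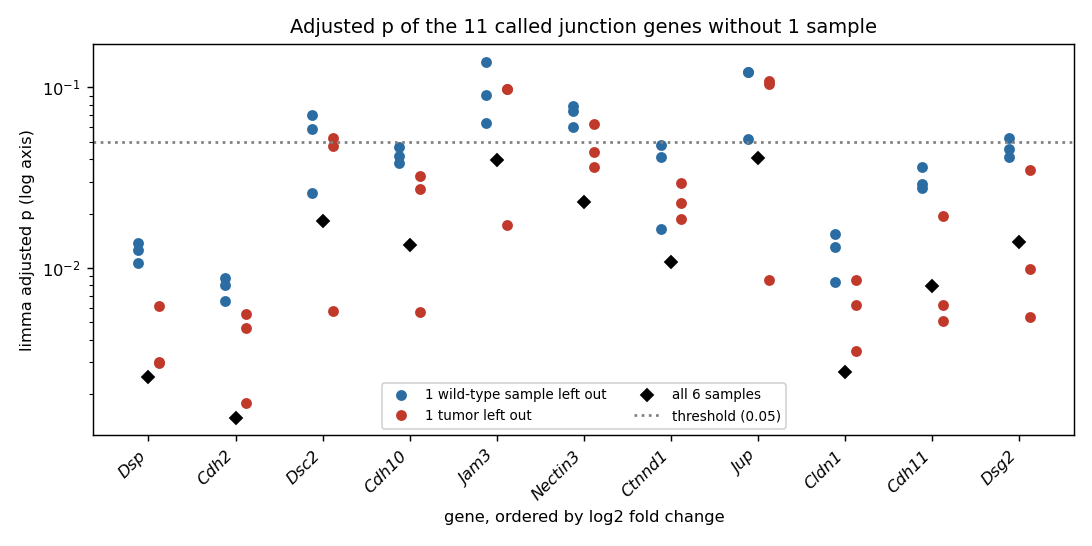
Limma adjusted p (logarithmic axis) of the 11 called junction genes with all 6 samples (black diamonds) and without 1 wild-type sample (blue) or 1 tumor (red); the dotted line is 0.05. Dsp, Cdh2, Cdh10, Ctnnd1, Cldn1 and Cdh11 stay under the line in each of the 6 fits.

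Without 1 sample at a time, 6 of the 11 calls held in each of the 6 fits: Dsp, Cdh2, Cdh10, Ctnnd1, Cldn1 and Cdh11. Among these, Cdh10 and Cldn1 were tested because a single group passed the filter, and the Cdh10 call rests on 1 of its 4 probe sets. The count of higher genes fell to 3 without wild-type replicate 1, and that of lower genes to 3 without wild-type replicate 1 or wild-type replicate 2.

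The tumors varied more among themselves than the wild-type samples, each of which was a pool. The coefficient of variation was larger among tumors in 24 of the 28 tested genes (85.7%), against 61.1% of all tested genes. Its median over the junction genes was 31.4% in tumors and 19.3% in wild-type samples. Over all tested genes it was lower in both groups, at 17.6% and 13.6%. Dim probe sets are part of this comparison, and it was not tested. The highest tumor differed between genes: of the 5 genes that rose, 3 were highest in tumor 1 (Cdh11, Cldn1 and Ctnnd1), 1 in tumor 2 (Jup) and 1 in tumor 3 (Dsg2).

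Other genes of cell junctions, from a list that contains none of the 60, were read the same way. Of 108 on the array, 80 were tested, of which 17 rose, 11 fell and 52 did not pass, with a median log2 fold change of 0.19. The share called was 35% (21.2% higher and 13.8% lower), beside 27.2% of all tested genes (14.5% higher and 12.6% lower). The counts went down to 8 and 6 without wild-type replicate 1, and the count of lower genes was 7 without wild-type replicate 2, wild-type replicate 3 or tumor replicate 2. Beta-catenin, from Ctnnb1, the partner that links cadherin tails to alpha-catenin, read 15965 to 16974 in wild-type samples and 12037 to 16493 in tumors (log2 fold change -0.21, limma adjusted p = 0.357). Of 6 tested catenin and plakophilin genes, 1 fell (Arvcf, whose call held in 1 of the 6 fits without 1 sample) and 5 did not pass, and of 12 adherens junction linkers, 2 rose and 1 fell. Of 27 tight junction scaffold and polarity genes, 8 rose, 1 fell and 18 did not pass, which makes 33.3% called beside the 27.2% of all tested genes. By direction, 29.6% were higher and 3.7% lower, beside 14.5% and 12.6% of all tested genes, a difference that was not tested. Of 7 other desmosome and filament genes, 2 rose and 1 fell, of 12 other cadherin superfamily genes, 2 rose and 3 fell, and of 16 immunoglobulin adhesion genes, 3 rose and 4 fell.

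By the size of the fitted log2 fold change, Lmo7, Des and Pard6b are named among the rises on that list and Igsf11, Cadm3 and Fat1 among the falls. Des, Pard6b and Cadm3 passed the filter through 1 group alone, which ties their testing to that group's level, and their changes are bounds without a rank. Lmo7, which encodes an actin-linked protein of adherens junctions, rose from 258.6 to 301.3 in wild-type samples to 1424 to 3378 in tumors (log2 fold change 2.78, SE 0.30). Des, the muscle filament gene, rose at least 4.18-fold and also stands among the smooth muscle markers, of which 10 of 10 rose (summed signal 5578 to 7113 in wild-type samples and 20455 to 37749 in tumors, none at 0). Its call was lost without wild-type replicate 1 (limma adjusted p = 0.053). Pard6b, a polarity gene, rose at least 2.71-fold. Igsf11, an adhesion gene, fell by 3.00 on the log2 scale (SE 0.25), and Cadm3, another, at least 2.65-fold. Fat1, a giant cadherin gene, read 14508 ± 366 in wild-type samples and 5368 ± 1481 in tumors (SD, n = 3 each) and changed by -1.47 on the log2 scale (SE 0.22).

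Transcription factor genes known for changing cadherin expression in epithelial to mesenchymal transitions, and the epithelial genes that oppose them, were read beside the cadherins. Of 13, 8 were tested: Snai1 and Zeb1 rose, Zeb2 and Grhl2 fell, and Snai2, Twist2, Tcf3 and Esrp2 did not pass (log2 fold changes 0.74, 0.18, 0.34 and 0.64). The share called among these 8 was 50% (25% higher and 25% lower), beside 27.2% of all tested genes (14.5% higher and 12.6% lower). Snai1 was under 100 in the wild-type samples and read 195.9, 219.2 and 139.6 in tumors, at least 1.82-fold higher (limma adjusted p = 0.00436). It passed the filter through the tumors alone, which ties its testing to their level. Zeb1 read 1139, 1157 and 1012 in wild-type samples and 2388, 3206 and 2015 in tumors (log2 fold change 1.15, SE 0.20, and 0.13 scaled to the hybridisation controls). Zeb2, its closest relative, went the opposite way, from 1432, 1082 and 1459 to 872.7, 708.2 and 688.8 (log2 fold change -0.78, SE 0.18). The Zeb2 call was lost in 3 of the 6 fits, those without wild-type replicate 1, wild-type replicate 3 and tumor replicate 2 (limma adjusted p of 0.0814 at most). Grhl2, an epithelial factor, read 138.0 to 169.1 in wild-type samples and 16.4, 115.4 and 18.4 in tumors, and its call held in 1 of the 6 fits without 1 sample, that without tumor replicate 2. Snai2 read 1063 to 1506 in wild-type samples and 1406 to 2796 in tumors (limma adjusted p = 0.0844), and passed without tumor replicate 1 (adjusted p = 0.0212). Twist1 read 6.8 to 32.8 in wild-type samples and 82.1 to 349.4 in tumors without passing the filter, and Snai3, Ovol1, Ovol2 and Esrp1 were not tested either. Among these untested factors only Twist1 is given with its signals, a choice made with the values known.

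Markers of further cell types were read as well. All 10 macrophage markers rose (summed signal 1663 to 1938 in wild-type samples and 8342 to 12075 in tumors). Of 5 tested oocyte markers 4 fell (939.4 to 1609 against 472.4 to 686.5), and of 4 genes on the theca list 2 fell (54508 to 68011 against 13580 to 45833). The theca list was drawn from Cyp17a1, Lhcgr, Star, Insl3, Hsd3b1 and Cyp11a1. These genes were not shown here to be particular to theca cells, so their summed signal does not measure theca content. Lymphocyte and plasma cell markers rose in 2 of 2 tested (226.3 to 298.5 against 648.4 to 5299) and adipocyte markers in 1 of 1 (99.1 to 198.9 against 808.3 to 26838), while 0 of 1 tested red blood cell markers was called (360.5 to 756.5 against 73.5 to 826.9). No marker on these lists was listed at 0 on all arrays. Their part in the values of the junction genes was not tested. Actb control probe sets at both ends of the transcript report on RNA quality: the 3′ over 5′ signal on the log2 scale was 0.33 to 0.67 in wild-type samples and 0.57 to 0.97 in tumors. For Gapdh it was -0.45 to -0.32 in wild-type samples and -0.47 to -0.24 in tumors. The part of RNA quality was not tested either.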

How the data were processed

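Each of 6 samples was hybridised to 1 Affymetrix array of 45101 probe sets. The deposited values are linear intensities per probe set, which per the submitters' processing notes come from MAS5 for wild-type and GCOS for tumor arrays, without a version; software and group cannot be told apart. They were used as deposited, with equal trimmed means (2% left out at each end). Genes were named by GEO's platform annotation: of 34945 probe sets with 1 symbol, 34741 had an identifier in the RefSeq table of GRCm38.p6, which changed 0 symbols.

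Tests used log2(signal + 32), the brightest passing probe set of each gene (100 or more on 3 or more of the 6 arrays) and 2-sided tests by lmFit and eBayes (limma 3.58.1, R 4.3.3), adjusted by Benjamini-Hochberg over 11613 genes. The single-probe-set p-values were adjusted over all passing probe sets. Where no array of the lower group reached 100, that group was set to 100 and the fold is given as "at least". Tables and figures used Python 3.11.15, pandas 2.3.3 and matplotlib 3.10.9, and the fit was tested on simulated data.

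Named with every array's value were called members and members with a group mean of at least 500; others by choice beside them. Of other lists, the 3 largest fitted log2 fold changes in each direction were named, with all factors of the transition list measured; the rule also names the leading markers of each cell type list, which are given here by counts, with single markers only beside a result. The members and lists were chosen with earlier results of these data known. Alternatives were other pseudocounts (1, 100), filters (200, none), quantile normalization, trend and robust eBayes, the mean of probe sets, a replicate block, leaving out each sample, and, added later, scaling to 18 hybridisation control probe sets.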

Additional observations from a re-analysis of the deposited data

How the results depend on the processing

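Only 3 arrays per group limit every value, and dim probe sets near a signal of 100 carry the least information. The replicate numbers are shared by the groups, and nothing in the sample names pairs them. Deviations of same-numbered samples correlated at -0.0448, 0.0276 and 0.09 across genes, which are not independent. Not every sample correlated best with its own number. With 3 arrays per group these correlations cannot decide whether samples were paired. With the replicate block, 5 junction genes were higher and 4 lower, and 15 and 9 of the other junction genes; the calls of Jam3 (adjusted p = 0.0866) and Nectin3 (0.061) were lost. Without 1 sample at a time, junction genes called higher ranged from 3 to 6 and lower from 3 to 6, and the other junction genes from 8 to 17 and from 6 to 11. Without the filter, 7 of the other junction genes were lower. Of the 11 calls, 6 (Cdh2, Cdh10, Cdh11, Cldn1, Ctnnd1 and Dsp) held under each of the other settings that could be fitted, 14 without the hybridisation controls. Cdh10 had no value with the filter at 200, and Cdh10 and Cldn1 passed the main filter through a single group. Without the filter, Jam3, Jup and Nectin3 were not called, with more genes tested. With the mean of its probe sets Nectin3 turned to 0.062, and Tjp1 passed with trend and robust eBayes (adjusted p = 0.0341). Scaled to the hybridisation controls, where all genes had a median of -0.98, the junction genes had a median of -0.88 with 1 higher and 15 lower. The other junction genes had 5 higher and 42 lower. The share of all genes called under this scaling is not given here, so these counts do not set either list apart. Cdh11, Dsg2, Jup and Ctnnd1 lost their calls, Jup at 0.011 and Ctnnd1 at -0.068 (SE 0.36). Ctnna1 (-0.91) and Jam2 (-0.93), not called in the main fit, changed sign and lay close to the median of all genes. The cause was not tested.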
